A study of Mus musculus with 12 samples.

Results

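The genes described here encode 8 enzymes of cholesterol synthesis, taken by symbol from the count table: Hmgcs1, Mvk, Mvd, Idi1, Fdps, Fdft1, Sqle and Lss. Of these 8, 7 were found among the 33924 genes of the table, and Hmgcs1 was not analysed here. RNA of sorted bone marrow myeloid progenitors (live cells negative for lineage markers and Sca1, positive for c-Kit) was counted from Lexogen 3' mRNA-seq libraries, 12 in all and 3 in each of 4 groups. The groups are old mice of genotype Mx+ Wt1fl/+ (old het), old mice of genotype Mx+ Wt1+/+ (old control), young Mx+ Wt1fl/+ mice (young het) and young Mx+ Wt1+/+ mice (young control). Every group carries the Mx transgene, which in mouse models drives Cre recombinase from an interferon-responsive promoter that acts in blood cells and in other tissues. The labels attach the word chronic to every old sample and the word acute to every young one, so age and that condition cannot be separated. The labels give no treatment, no ages in numbers, no sex and no batch, and do not say whether libraries came from separate animals, so p-values measure only the spread between these libraries.

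Cholesterol synthesis starts from acetyl-CoA. Hmgcs1 makes hydroxymethylglutaryl-CoA, which is reduced to mevalonate; Mvk phosphorylates mevalonate, and Mvd decarboxylates its diphosphate to the isoprene unit that Idi1 isomerises. Fdps joins these units to farnesyl diphosphate, the branch point to protein prenylation and other isoprenoids. Fdft1 commits farnesyl diphosphate to squalene, Sqle epoxidises squalene, and Lss closes the ring to lanosterol. Transcription of these genes is driven by the sterol-sensing factor SREBP-2 together with NF-Y, which binds CCAAT letters. Dividing blood progenitors need the pathway for membranes and for prenylated proteins.

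Promoter windows were at hand in RefSeq (build GRCm38.p6) for 5 of the 8 genes, each of them the 250 bases before the gene start. All 5 windows held CCAAT on one strand or the other, against 33.8% of 32851 such windows over the genome. CCAAT was not particular to these genes. Among genes with a window it was held by 11 of 12 further enzymes of cholesterol synthesis and 5 of 8 genes of sterol sensing. The classical sterol regulatory element was in none of the 5 windows (0.192% of all windows), and its shorter core CACNCCAC was in the window of Hmgcs1 (5.29% of all windows). The windows of Mvk, whose level differed most clearly between the groups below, and of Mvd, which follows it in the pathway, were chosen after their values were seen and are shown with CCAAT, or ATTGG where it lies on the other strand, in capitals. The Mvk window lies at chr5:114444019-114444268 on the plus strand and the Mvd window at chr8:122443423-122443672 on the minus strand.
Mvk: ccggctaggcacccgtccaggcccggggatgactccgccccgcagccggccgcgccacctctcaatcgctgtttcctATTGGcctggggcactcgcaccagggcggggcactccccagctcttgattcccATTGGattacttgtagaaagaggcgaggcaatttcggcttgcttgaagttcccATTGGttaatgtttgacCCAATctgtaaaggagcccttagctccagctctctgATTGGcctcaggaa
Mvd: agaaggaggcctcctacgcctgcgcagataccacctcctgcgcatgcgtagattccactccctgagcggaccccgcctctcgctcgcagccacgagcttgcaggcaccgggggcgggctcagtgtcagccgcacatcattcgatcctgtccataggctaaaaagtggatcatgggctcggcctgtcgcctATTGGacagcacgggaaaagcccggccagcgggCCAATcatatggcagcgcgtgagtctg
The Mvk window held 5 matches, a number reached by 0.213% of all windows, and the Mvd window held 2, reached by 10.1%. The letters were searched on both strands and are a description, not a measured binding site.

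Wt1 itself, the targeted gene, was counted 3, 2 and 4 times in old hets 1 to 3, 1, 4 and 2 times in old controls, 7, 4 and 23 times in young hets and 8, 4 and 6 times in young controls. It was too low to enter the test, and the deleted stretch may lie outside the 3' end that was read, so it does not check the genotype labels. Total counts were 1264603 to 2303346 in the old hets, 2074955 to 9645502 in the old controls, 3113183 to 6794892 in the young hets and 645460 to 1600995 in the young controls. The defining progenitor gene Kit, the receptor named c-Kit, was at 194 ± 80.1 CPM in old hets, 190 ± 16.3 in old controls, 129 ± 34.5 in young hets and 190 ± 91.2 in young controls (SD, n = 3 each). CPM is a count divided by the library total, after TMM scaling of that total for differences in library composition. Ly6a, which encodes Sca1, had 0 counts in every young library and reached 69.8 CPM in old control 1, the deepest library. Mitochondrial rRNA took 1.40% to 4.78% of counts in old hets, 1.70% to 2.38% in old controls, 2.999% to 3.51% in young hets and 4.35% to 8.22% in young controls. Xist was between 616 and 2133 CPM in the 3 young hets, young control 3 and old het 1, and at 3.04 CPM or less in the other 7 libraries. The Y chromosome gene Ddx3y had 0 counts in the libraries with Xist and 83 to 1457 in the other 7. By these genes all young hets were female, all old controls and young controls 1 and 2 male, and the old hets mixed. Genotype in young mice and age in controls thus went partly together with sex. The labels number young control 3 as 18, the young hets as 19 to 21, and young controls 1 and 2 as 29 and 30.

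**Figure D1:**
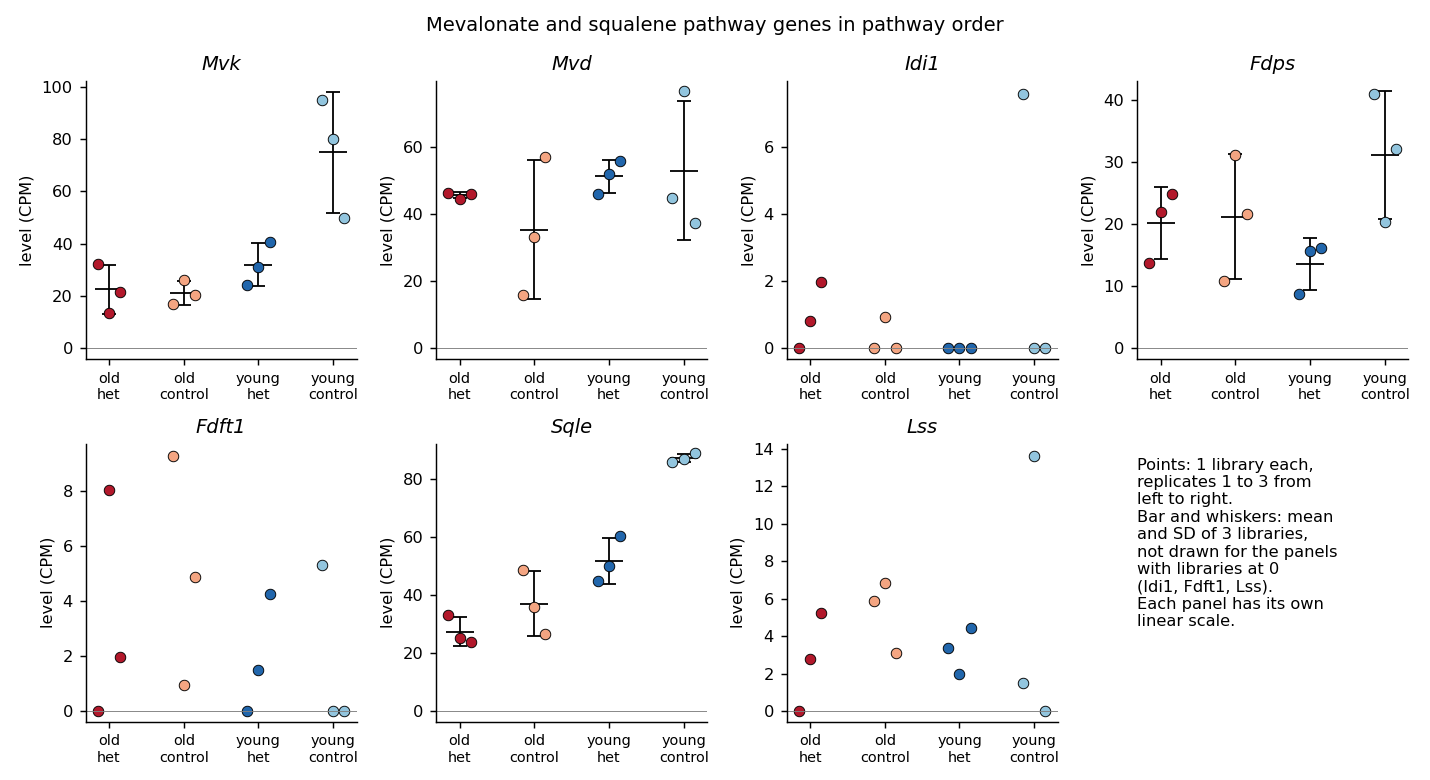
Level (CPM, linear scale) of the 7 counted genes in each of 12 libraries, in pathway order; points are libraries, bars and whiskers the mean and SD of 3, drawn where no library is at 0. The young controls lie highest in Mvk (49.7 to 94.9 CPM) and Sqle (85.8 to 88.7 CPM), whereas Idi1, Fdft1 and Lss have libraries at 0.

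In these libraries the young controls lay apart from the other groups in Mvk and Sqle. Of these differences only that of Mvk between old and young controls passed the edgeR test described below. Fdps was higher in every young control (31.2 ± 10.3 CPM) than in every young het (13.6 ± 4.19, SD, n = 3 each), without passing, and young controls overlapped the old groups. Idi1, Fdft1 and Lss were too low to tell. Mvk was 32.3, 13.6 and 21.7 CPM in old hets 1 to 3 and 17.1, 26.2 and 20.3 in old controls 1 to 3. It was 24.2, 30.9 and 40.6 CPM in young hets 1 to 3 and 94.9, 79.9 and 49.7 in young controls 1 to 3. Every young control thus lay above each of the other 9 libraries, while the other 3 groups overlapped. By group mean the order was young control (74.8 ± 23.0 CPM), young het (31.9 ± 8.23), old het (22.5 ± 9.39) and old control (21.2 ± 4.58; SD, n = 3 each).

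Sqle, which introduces the oxygen that later becomes the sterol hydroxyl, was 33.2, 25.3 and 23.6 CPM in old hets 1 to 3 and 48.6, 35.8 and 26.5 in old controls 1 to 3. It was 44.7, 49.998 and 60.2 CPM in young hets 1 to 3 and 85.8, 86.7 and 88.7 in young controls 1 to 3. The young controls again lay above all other libraries. Their SD of 1.46 CPM is smaller than the 2.28, 5.10 and 2.29 CPM that 3 counts stand for in young controls 1 to 3. Their close agreement is thus no measure of the spread in this group. By group mean the order was young control (87.0 ± 1.46 CPM), young het (51.6 ± 7.87), old control (37.0 ± 11.1) and old het (27.3 ± 5.09; SD, n = 3 each), with old controls overlapping both of their neighbours.

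Mvd did not share this pattern. It was 46.1, 44.5 and 46.0 CPM in old hets 1 to 3, 16.03, 33.0 and 57.0 in old controls, 46.0, 51.8 and 55.7 in young hets and 44.8, 76.5 and 37.4 in young controls. All 4 groups overlapped, and old control 1, the deepest library, was the lowest. Fdps was 13.7, 22.0 and 25.0 CPM in old hets, 10.9, 31.1 and 21.7 in old controls, 8.74, 15.8 and 16.2 in young hets and 41.0, 20.4 and 32.1 in young controls. The young hets lay below the young controls, and both old groups spanned the gap between them.

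The remaining 3 genes were near the lower limit of counting. Idi1 had 19 counts over all 12 libraries, 5 in the old hets, 4 in the old controls, 0 in the young hets and 10 in the young controls, all of the last in young control 1. It was too low to enter the test. Fdft1 was counted 0, 20 and 3 times in old hets 1 to 3, 101, 4 and 11 times in old controls, 0, 10 and 25 times in young hets and 7, 0 and 0 times in young controls. Lss was counted 0, 7 and 8 times in old hets, 64, 29 and 7 times in old controls, 10, 13 and 26 times in young hets and 2, 8 and 0 times in young controls. In the shallowest library, young control 2, 3 counts stand for 5.10 CPM, and in the deepest, old control 1, for 0.275 CPM, so differences of this size were not detectable in the shallow libraries. Fdft1 and Lss entered the test and did not pass it in any comparison, and with groups that hold libraries at 0 their fitted changes are not given. In GENCODE M21 (GRCm38), exons of Fdft1 overlap those of Ctsb on the other strand over 774 bases and exons of Fdps overlap those of the predicted gene Gm43738 on the same strand over 1124 bases. Neither the annotation nor the strand setting of the counting is known here, and reads of each pair could not be separated.

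The design first sets het progenitors against controls of the same age, which asks what 1 floxed Wt1 allele does in each; whether and when Cre was induced is not stated in the labels. In old mice none of the 6 tested members passed an adjusted p of 0.05 by edgeR's quasi-likelihood test, and 0 of 10604 genes did (0%). None of the 6 had an unadjusted p under 0.05, against 3.58% of all tested genes, and DESeq2 and limma-voom also called 0 members. No member had old hets apart from old controls, against 11.1% of all genes. The median log2 change, old het over old control, was -0.25 over the 6 members, 0.0087 over the 4 counted in every library (Mvk, Mvd, Fdps and Sqle), and -0.05 over all genes; the sign of the first rests on Fdft1 and Lss. Mvk was at 0.07 (95% interval -0.88 to 1.03), Mvd at 0.38 (-0.56 to 1.32), Fdps at -0.06 (-1.21 to 1.10) and Sqle at -0.45 (-1.25 to 0.35). Each of these intervals reaches about 1 on the log2 scale in at least 1 direction, so changes of that size were not excluded there. The smallest change that the adjusted test could detect was not measured.

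In young mice 3 of the 6 tested members, Mvk, Fdps and Sqle, were lower in every young het than in every young control, against 7.12% of all tested genes that lay apart in this direction. None passed the edgeR test, in which 45 of 10604 genes passed (0.424%), and DESeq2 and limma-voom also called 0 members; 2 had an unadjusted p under 0.05, against 14% of all genes. Mvk had a log2 change, young het over young control, of -1.22 (SE 0.45, 95% interval -2.17 to -0.28, edgeR adjusted p = 0.224); over 20 alternatives, DESeq2 and limma-voom included, its adjusted p ran from 0.0807 to 0.687. Fdps was at -1.21 (SE 0.56, -2.38 to -0.03, edgeR adjusted p = 0.342) and Sqle at -0.75 (SE 0.38, -1.54 to 0.04, edgeR adjusted p = 0.383). Mvd was at -0.03 (-0.97 to 0.92). The median was -0.62 over the 6 members, 5 of them below 0, a value that rests in part on Lss with its libraries at 0. Over the 4 members counted in every library, all below 0, it was -0.98, and over all genes 0.08, with 54.2% of genes above 0. Mitochondrial rRNA took a larger share in each young control than in any young het, and when that share was added to the fit Mvk was at -0.77 (SE 0.50, edgeR adjusted p = 0.687). Young control 3, which like the young hets carried Xist and bears the neighbouring number, had Mvk at 49.7 CPM against 24.2 to 40.6 in young hets, Sqle at 88.7 against 44.7 to 60.2 and Fdps at 32.1 against 8.74 to 16.2, a comparison of 1 library with 3 that allows no test. Of 41 tested markers of 9 other cell types or states 1 passed here, the basophil and mast cell gene Hdc (1.94, SE 0.38, edgeR adjusted p = 0.0385). The 6 basophil and mast cell markers summed to 716 to 944 CPM in young hets and 190 to 499.8 CPM in young controls, with Fcer1a at 0 in young controls. Hdc alone had means of 624 and 162 CPM, beside mean sums of 867 and 338 CPM. Among markers that did not pass, the neutrophil granule genes Prtn3, Elane and Mpo and the basophil gene Prss34 were higher in every young het than in every young control, and Ly86 and Ebf1, monocyte and B cell markers, lower. These lists were mixed. Of the first 2, Ctsg (-0.41), Cpa3 (-0.26) and Ms4a2 (-0.32) were below 0, whereas Ms4a3 (0.81) and Mcpt8 (0.36) were above. Of the monocyte and B cell lists, Irf8 (0.09), Lyz2 (0.41), Cd68 (1.19) and Cd79b (0.69) were above 0, whereas Csf1r (-1.15) and Vpreb1 (-0.73) were below. The share of all genes higher in every young het is not given here, so Prtn3, Elane, Mpo and Prss34 are not set against it. The part of these cell types in the Mvk, Fdps and Sqle values was not tested.

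The het effect itself was compared between the ages by an interaction term. None of the 6 members passed by edgeR, DESeq2 or limma-voom, and none had an unadjusted edgeR p under 0.05, against 12.8% of all genes; 9 of 10604 genes passed the adjusted threshold (0.0849%). The difference, effect in old minus effect in young, was 1.30 for Mvk (SE 0.65, 95% interval -0.05 to 2.64, edgeR adjusted p = 0.405), 1.15 for Fdps (SE 0.79, -0.49 to 2.79), 0.30 for Sqle (SE 0.54, -0.82 to 1.42) and 0.41 for Mvd (SE 0.64, -0.93 to 1.74). The effects at the 2 ages were thus not shown to differ.

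**Figure D2:**
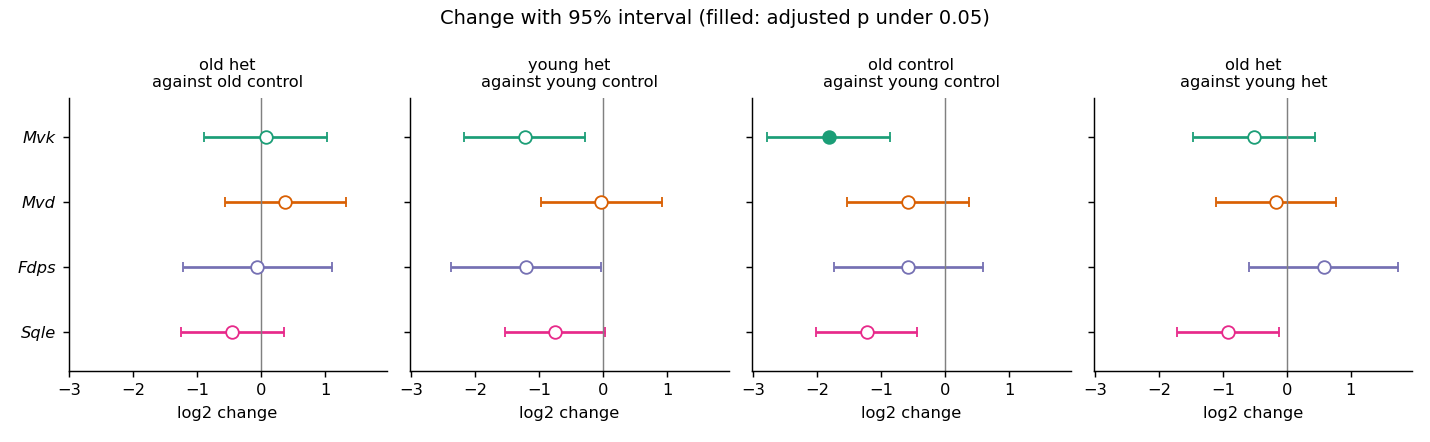
Log2 change with its 95% interval for the 4 members counted in every library, in the 4 comparisons of groups; a filled point has an edgeR adjusted p under 0.05. Mvk in old controls against young controls is the filled point, at -1.82, and Sqle lies below 0 in all 4 panels.

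The second contrast sets old progenitors against young ones of the same genotype. Among controls Mvk fell, with a log2 change, old control over young control, of -1.82 (SE 0.46, 95% interval -2.78 to -0.85, edgeR adjusted p = 0.0226), and was lower in all 3 old controls than in all 3 young controls. It was the only one of the 6 tested members to pass by edgeR, where 740 of 10604 genes passed (6.98%), 444 lower (4.19%) and 296 higher (2.79%). Sqle was at -1.23 (SE 0.38, -2.02 to -0.43) with an edgeR adjusted p = 0.0557. It passed with DESeq2 (-1.29, adjusted p = 0.0105), with DESeq2 size factors in edgeR (adjusted p = 0.0456) and without young het 1 (adjusted p = 0.0382), and its adjusted p ran up to 0.552 over 20 alternatives. Old controls lay below young controls in 2 of the 6 members, Mvk and Sqle, against 12.2% of all genes; 2 had an unadjusted p under 0.05, against 23.1%. Mvd was at -0.58 (SE 0.46, -1.53 to 0.38) and Fdps at -0.57 (SE 0.56, -1.74 to 0.59). The median was -0.58 over the 6 members and -0.90 over the 4 counted in every library, beside 0.22 over all genes, of which 57.9% lay above 0. Of the 6 members 4 were below 0 and 2 above. Those above were Fdft1 and Lss, which have young controls at 0. The second median leaves out only these and is lower for that reason.

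The call of Mvk was lost on leaving out any 1 of 4 libraries. These were young control 1 (-1.66, adjusted p = 0.0846), old control 1 (-1.67, adjusted p = 0.0980), old control 2 (-1.99, adjusted p = 0.0581) and old control 3 (-1.77, adjusted p = 0.0835), all by edgeR. The log2 change itself stayed between -2.10 and -1.66 over left-out libraries. With mitochondrial rRNA as a covariate Mvk was at -1.06 (SE 0.63, adjusted p = 0.664), and with Xist as a covariate at -1.74 (SE 0.50, adjusted p = 0.0627). Over 20 alternatives its log2 change stayed between -2.10 and -1.06 and passed in 14. The mitochondrial rRNA share ran from 1.70% to 2.38% in old controls and from 4.35% to 8.22% in young controls. Of the same 41 markers 8 passed the edgeR test between these groups. The 5 B cell markers summed to 23.1 to 41.8 CPM in old controls and 112 to 218 CPM in young controls, with Ebf1 and Vpreb1 lower by the test, while Cd79a was at 0 in both groups. The 4 MHC class II genes summed to 39.4 to 627 CPM in old controls and 12.1 to 32.9 CPM in young controls, with 3 of 4 higher by the test and H2-Eb1 at 0 in young controls. The old controls were far from alike in these genes. Cd74 was 77.0 ± 108 CPM there (9.43 to 202) and H2-Aa 74.6 ± 97.5 (17.2 to 187; SD, n = 3). The highest values were in old control 1, the library with the most Ly6a. Cd3e (5.04 CPM) and Klrb1c (9.34 CPM), T and NK cell markers too low for the test, were among the old controls counted in that library only. Of the 2 tested markers of that list, Nkg7 (1.97) was above 0 and Cd3d (-1.03) below, and neither passed. H2-Ab1, which passed, had overlapping groups. Also higher by the test were the neutrophil granule gene Prtn3 (2.23, edgeR adjusted p = 0.00752), the monocyte gene Irf8 (1.25, edgeR adjusted p = 0.0492) and the basophil gene Prss34. Of the other tested neutrophil granule and basophil and mast cell markers, Ms4a3 (-0.97) and Mcpt8 (-0.97) were below 0 and the rest above. The 5 monocyte markers summed to 641 to 788 CPM in old controls and 282 to 411 CPM in young controls. Irf8 alone had means of 601 and 254 CPM. Of the other monocyte markers, Ly86 (-1.97) and Csf1r (-0.63) were below 0, and Lyz2 (2.06) and Cd68 (1.78) above. The 6 megakaryocyte markers summed to 176 to 406 CPM in old controls and 102 to 179 CPM in young controls, and none of 5 tested passed, 3 with an unadjusted p under 0.05. The 7 erythroid markers summed to 428 to 1713 CPM in old controls, a range that encloses the 1282 to 1481 CPM of young controls. None of 6 tested erythroid markers passed or had the groups apart, though all 6 were below 0, and Alas2 was at 0 in all young controls. The part of these cell types in the Mvk and Sqle differences was not tested. Fewer cells of one type and less RNA per cell cannot be told apart in such sorted bulk samples.

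Among hets no member passed between the ages by edgeR, DESeq2 or limma-voom, against 1 of 10604 genes by edgeR (0.00943%), and 1 member had an unadjusted p under 0.05, against 6.28% of all genes. That member was Sqle, at a log2 change, old het over young het, of -0.92 (SE 0.38, 95% interval -1.72 to -0.12, edgeR adjusted p = 0.723), lower in all 3 old hets than in all 3 young hets, as were 6.95% of all genes. Mvk was at -0.52 (-1.47 to 0.43), Mvd at -0.17 (-1.11 to 0.76) and Fdps at 0.57 (-0.59 to 1.74). The age comparisons among hets and among controls use different libraries. Sqle, Mvk and Mvd were below 0 in both, and Fdps among controls only. None of the 41 markers passed between old and young hets. Erythroid markers were below 0 in 6 of 6 tested, with a median of -1.15, and 3 had the groups apart, among them Epor (-2.31, SE 0.74, edgeR adjusted p = 0.615). Their sums were 474 to 880 CPM in old hets and 827 to 1534 CPM in young hets. Monocyte markers were above 0 in 5 of 5 tested, with a median of 0.97 beside 0.01 over all genes. Of these markers 2 had the groups apart, a count not set against a share of all genes in that direction. MHC class II genes were above 0 in 4 of 4, with the groups apart in 0. The B cell marker Vpreb1 was at -1.87 (SE 0.49, edgeR adjusted p = 0.568) with the groups apart, beside Ebf1 at -0.31 and Cd79b at 0.24. The part of any of these cell types in the Sqle value was not tested.

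**Figure D3:**
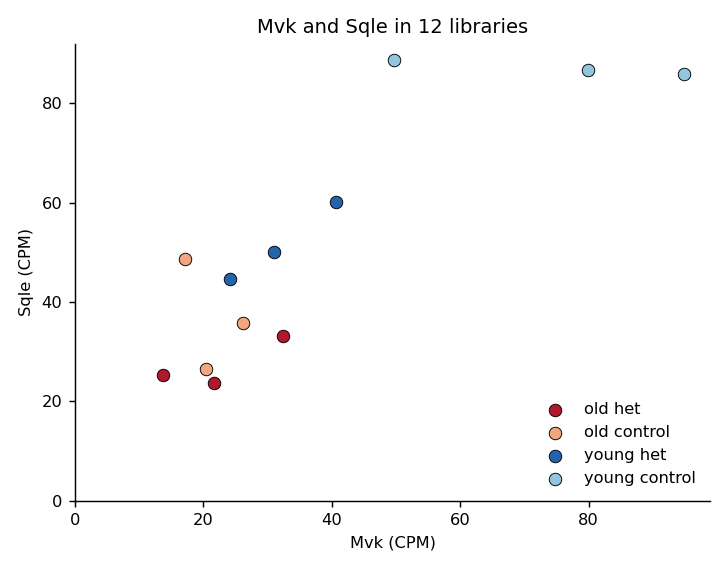
Sqle against Mvk (both in CPM, linear axes) in 12 libraries, coloured by group. The 3 young controls stand at the upper right, with Mvk at 49.7 to 94.9 CPM, and the other 9 libraries run from 13.6 to 40.6 CPM.

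Mvk and Sqle were the pair of members whose log2 CPM ran most alike, as the plot of the 2 genes shows. Over 12 libraries, which share their depth and group structure, Pearson's r was 0.84 and Spearman's rho 0.78 for this pair, given as a description. The other 5 pairs of the 4 members counted in every library had Pearson's r between 0.078 and 0.43. Pairs with Fdft1 or Lss are not given, since log2 CPM in libraries at 0 is set by the prior count and the depth. The 5 genes outside the lists whose log2 CPM was most like the mean profile of the 6 tested members, Fdft1 and Lss included, over the same 12 libraries were Usp4 (Pearson's r 0.92, Spearman's rho 0.90), Wrap53 (0.89 and 0.91), Ccdc72 (0.88 and 0.90), Chchd7 (0.86 and 0.88) and Gm13826 (0.86 and 0.83). They are the highest of 10604 genes by choice.

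The other enzymes of the route described here lay on both sides of 0. Of 12 further synthesis genes, all 12 entered the test and none passed in any of the 5 comparisons. For old control over young control 8 of them were above 0 and 4 below, with a median log2 change of 0.50 beside 0.22 over all genes, and for young het over young control 9 were above 0 and 3 below, with a median of 0.48 beside 0.08. Ebp, the sterol isomerase late in the pathway, was 152 ± 25.7 CPM in old controls, 129 ± 26.3 in young hets and 48.9 ± 45.3 in young controls (SD, n = 3 each). Its log2 change was 1.63 (SE 0.57, edgeR adjusted p = 0.0848) for old control over young control and 1.39 (SE 0.56, edgeR adjusted p = 0.266) for young het over young control, in each case with the groups apart and opposite in sign to Mvk. Sc4mol, an older symbol of the methyl sterol oxidase Msmo1, was 33.9 ± 10.9 CPM in young hets and 57.8 ± 4.62 in young controls, a log2 change of -0.76 (SE 0.43, edgeR adjusted p = 0.448), also with the groups apart. Cyp51, the lanosterol demethylase that acts after Lss, was 68.3 ± 14.5 CPM in old controls and 38.9 ± 24.3 in young controls (log2 change 0.81, SE 0.47, edgeR adjusted p = 0.312). Hsd17b7 was 20.5 ± 1.62 CPM in old hets and 3.46 ± 4.73 in young hets, 1 of them at 0 (2.50, SE 0.94, edgeR adjusted p = 0.723). It was 18.0 ± 5.46 CPM in old controls and 7.15 ± 2.22 in young controls (1.35, SE 0.95, edgeR adjusted p = 0.419). The groups lay apart in both age comparisons of Hsd17b7, above 0 where Sqle was below.

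Genes of sterol sensing, which hold or release SREBP, likewise gave no call among 9 tested. Srebf2, which encodes SREBP-2, was 101 ± 34.3 CPM in old hets, 161 ± 49.3 in old controls, 186 ± 22.5 in young hets and 180 ± 88.5 in young controls. Its lowest unadjusted p was for old het over young het, at a log2 change of -0.88 (SE 0.38, edgeR adjusted p = 0.726). Mbtps1, the protease that cleaves SREBP first, was 193 ± 26.7 CPM in old controls and 328 ± 21.1 in young controls (-0.77, SE 0.29, edgeR adjusted p = 0.111), and Mbtps2, which cleaves it next, 15.2 ± 0.993 and 7.34 ± 3.06 CPM (1.04, SE 0.66, edgeR adjusted p = 0.363). The groups lay apart in both, in opposite directions. Mylip, a ubiquitin ligase for lipoprotein receptors, was 19.6 ± 2.99 CPM in old controls and 57.6 ± 28.3 in young controls (-1.56, SE 0.53, edgeR adjusted p = 0.0770). Of the 6 genes of sterol export and storage 4 were tested, and none passed in any comparison. Abcg1, a sterol exporter, was 9.13 ± 3.67 CPM in old hets and 25.8 ± 9.75 in old controls (log2 change -1.52, SE 0.73, edgeR adjusted p = 0.999).

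In the neighbouring branch of fatty acid synthesis 1 of 7 tested genes passed, in 1 comparison. Scd2, a desaturase that makes monounsaturated fatty acids, was 192, 341 and 297 CPM in old controls 1 to 3 and 1894, 1739 and 1541 in young controls 1 to 3. It fell, with a log2 change of -2.64 (SE 0.42, edgeR adjusted p = 0.00117), with the groups far apart. With mitochondrial rRNA as a covariate it was at -1.48 (SE 0.46, edgeR adjusted p = 0.370), and without any single library the adjusted p stayed at 0.0118 or below. Scd2 was 390, 622 and 701 CPM in young hets 1 to 3, each below every young control, at a log2 change of -1.59 (SE 0.40, edgeR adjusted p = 0.0806), which passed in 4 of 20 alternatives. It was 731, 192 and 567 CPM in old hets 1 to 3, overlapping the old controls, at a log2 change of 0.84 (SE 0.40, edgeR adjusted p = 0.999). The het effect in old minus that in young was 2.44 (SE 0.57, 95% interval 1.26 to 3.62, edgeR adjusted p = 0.0833), which passed in 4 of 19 alternatives. Like Mvk and Sqle, Scd2 was highest in the young controls. The other 6 genes of this list did not pass, and the list's median for old control over young control was -0.18 beside 0.22 over all genes.

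**Figure D4:**
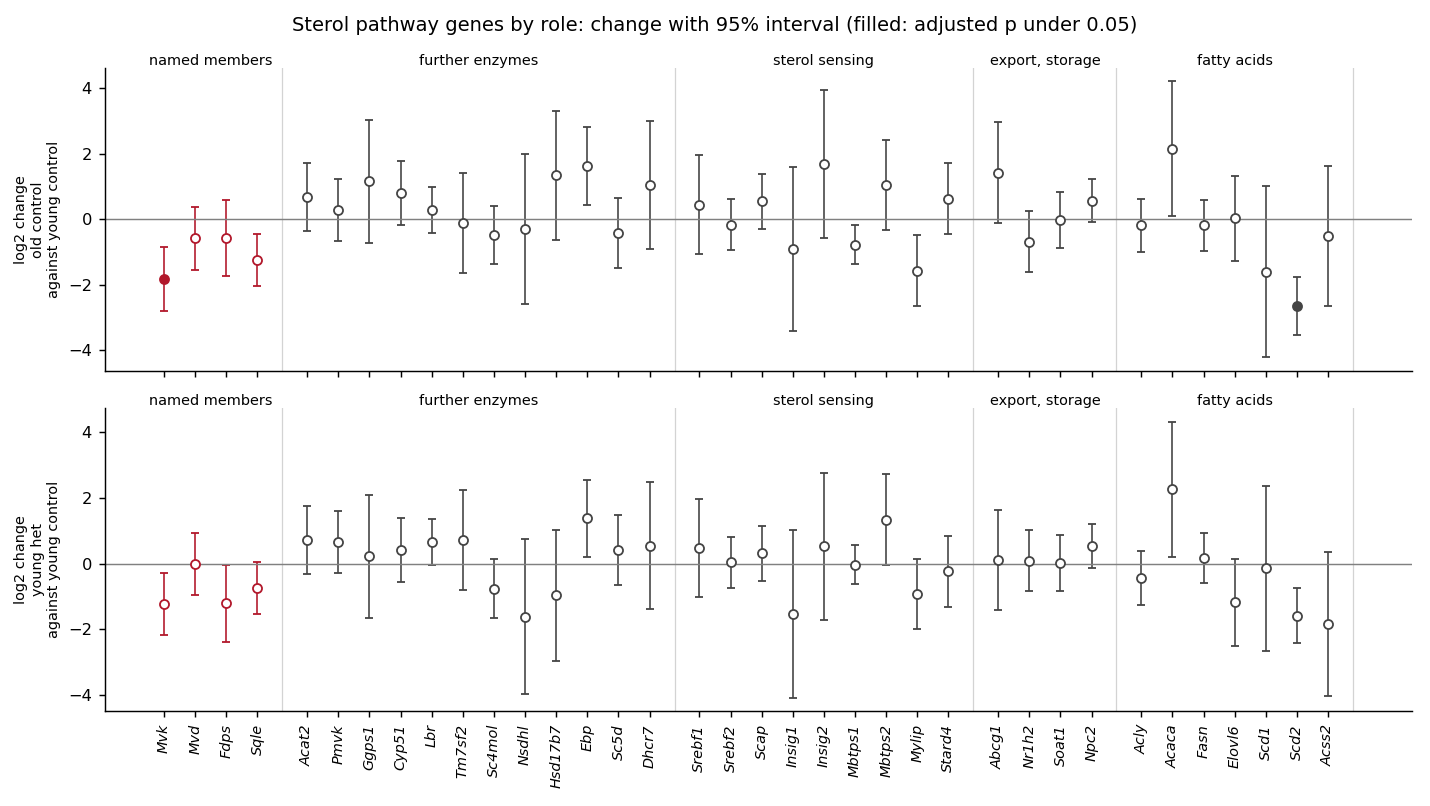
Log2 change with 95% interval of the members (red) and of the other sterol and fatty acid genes (grey), by role, for old control against young control (top) and young het against young control (bottom); filled points have an edgeR adjusted p under 0.05. Mvk and Scd2 are the filled points of the top panel, at -1.82 and -2.64, and the further synthesis enzymes lie on both sides of 0.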

How the data were processed

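The authors deposited a single table of raw counts per gene symbol. The tools named in the submitters' processing notes are STAR 2.4, HTSeq 0.6.1 and DESeq2, with build mm9, in no stated role or order. Annotation, strand setting and use of molecular identifiers: not given in the sources used here. The floors of 3 counts cover counting error only. Symbols were matched as deposited.

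Of 33924 genes, 10604 passed filterByExpr (minimum count 10, minimum total 15) and were tested with edgeR 4.0.16 in R 4.3.3 (quasi-likelihood F test, TMM scaling, 4 groups in 1 fit of 12 libraries, no covariates). P-values were adjusted by Benjamini-Hochberg over all tested genes, with a threshold of 0.05. The SE is the absolute log2 change over the square root of F, and log2 CPM used a prior count of 2. Counts of replicate pairs differed beyond sampling noise, by a chi-square of 5.22 to 50.9 for each degree of freedom. Members and lists were chosen with earlier results of these data known; named were all members and, per list and comparison, genes that passed or had 1 of the 3 smallest p-values, of which not all are printed. Alternatives were DESeq2 1.42.0, limma-voom (limma 3.58.1), DESeq2 size factors, no low-count filter, the compared groups alone, 2 covariates and leaving out libraries. Promoter windows were to be printed where they held sterol element letters; only that of Hmgcs1 did, which has no values here, so those of Mvk and Mvd were printed instead. One further synthesis gene and a B cell marker are not reported here and were left out of the list counts, medians and sums.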

Additional observations from a re-analysis of the deposited data

How the results depend on the processing

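No paired analysis was possible because the labels give no replicate numbers and the numbers used here only name libraries. The count of members called between old and young controls, 1 as reported, was 2 with DESeq2 and with DESeq2 size factors (Mvk and Sqle), 0 with the mitochondrial rRNA share or Xist as a covariate, and 0 to 2 when a library was left out; in the other 4 comparisons it was 0 under every alternative run. Signs turned only in changes that passed in no setting. Between young hets and young controls Mvd was at 0.14 with limma-voom, 0.015 without the low-count filter, 0.24 with the mitochondrial covariate and 0.038 with Xist, and ran from -0.22 to 0.29 over left-out libraries. Between old hets and old controls Mvk was at -0.046 with limma-voom, -0.30 with the mitochondrial covariate, -0.016 with Xist and -0.071 without old control 1 and young control 3 together, and from -0.24 to 0.34 over left-out libraries; Fdps was at 0.28 with limma-voom and 0.0056 with the mitochondrial covariate, and from -0.38 to 0.34. The difference of het effects for Mvd was -0.0064 with the mitochondrial covariate. Scd2 between old and young hets was at 0.18 with Xist and from -0.61 to 0.19 over left-out libraries. The causes were not tested. Of the young controls the shallowest had 645460 counts, which limits the low members Idi1, Fdft1 and Lss. The compared groups alone could not give the difference of het effects.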
